A study of Homo sapiens with 9 samples.

Results

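The transcripts of the mitochondrial ribosomal proteins were examined in 143B, an established human osteosarcoma line, before and during treatment with XD23. The genes were taken by name: every protein-coding gene of the deposited table whose symbol is MRPL or MRPS followed by a number, without pseudogenes. This gave 77 genes of the 36810 in the table, 48 named MRPL for the large subunit and 29 named MRPS for the small one; MRPL53 was not analysed here. The 9 libraries form 3 groups of 3: 143B cells that received 0.5 µM XD23 for 48 h, 143B cells that received the same dose for 24 h, and control cells with no XD23, whose labels give 0 h. The labels give XD23 as a code name and nothing more about the compound. All cells were 1 line grown in the same serum-containing medium. No vehicle is named and no untreated cells were collected at 24 h or 48 h, so the compound and the time in culture cannot be told apart. Whether the libraries within a group are separate cultures is not stated, and p-values therefore cover the spread from library to library, which may be technical. The levels are FPKM, that is fragments per kilobase of gene, scaled to the total fragments of the library.

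The mitochondrial ribosome makes the few respiratory chain subunits that are encoded in mitochondrial DNA. Its ribosomal RNAs are transcribed inside the organelle, while its proteins are encoded in the nucleus, made in the cytosol and imported. Some of these proteins descend from bacterial ribosomal proteins, and others are found in mitochondria only. Many nuclear genes for mitochondrial proteins are bound by NRF1, by GABP of the ETS family and by YY1 near the start of transcription.

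The promoters of 7 members are shown, 4 that were lower at 48 h than in control with a RefSeq start close to the annotated gene start (MRPL20, MRPL33, MRPS10, MRPS16), the member with the largest difference (MRPL1), the member that was most clearly higher (MRPS30) and 1 with a difference near 0 (MRPL9, -0.05, limma adjusted p = 0.519). Each window runs 5′ to 3′ in the direction of the gene, from 250 bases before to 30 bases after the start that RefSeq gives in GRCh38.p14. Capitals mark matches on either strand to the ETS family letters CCGGAAG, the YY1 letters AANATGGC, the NRF1 letters (GCGCA, any base, GCGC) or the E-box CACGTG, and no match overlapped another in these windows. The windows are chr4:77862580-77862859 on the plus strand for MRPL1, chr1:1407264-1407543 on the minus strand for MRPL20, chr2:27771469-27771748 on the plus strand for MRPL33, chr1:151763467-151763746 on the minus strand for MRPL9, chr6:42217832-42218111 on the minus strand for MRPS10, chr10:73252615-73252894 on the minus strand for MRPS16 and chr5:44808697-44808976 on the plus strand for MRPS30.
MRPL1: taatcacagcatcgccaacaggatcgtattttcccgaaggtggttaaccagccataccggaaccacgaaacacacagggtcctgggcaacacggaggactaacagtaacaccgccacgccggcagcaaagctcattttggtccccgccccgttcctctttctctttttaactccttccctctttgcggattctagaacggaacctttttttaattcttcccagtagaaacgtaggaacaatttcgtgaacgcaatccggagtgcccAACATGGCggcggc
MRPL20: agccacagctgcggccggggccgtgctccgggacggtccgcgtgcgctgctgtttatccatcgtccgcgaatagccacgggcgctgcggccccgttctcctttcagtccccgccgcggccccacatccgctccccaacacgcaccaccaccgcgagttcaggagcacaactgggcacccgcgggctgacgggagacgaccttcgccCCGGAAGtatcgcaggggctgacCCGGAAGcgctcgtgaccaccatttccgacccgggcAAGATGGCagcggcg
MRPL33: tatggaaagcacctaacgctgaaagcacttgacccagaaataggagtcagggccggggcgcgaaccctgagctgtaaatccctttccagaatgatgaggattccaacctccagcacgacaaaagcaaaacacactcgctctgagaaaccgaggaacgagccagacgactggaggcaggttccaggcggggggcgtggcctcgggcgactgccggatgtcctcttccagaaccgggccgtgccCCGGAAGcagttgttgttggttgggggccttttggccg
MRPL9: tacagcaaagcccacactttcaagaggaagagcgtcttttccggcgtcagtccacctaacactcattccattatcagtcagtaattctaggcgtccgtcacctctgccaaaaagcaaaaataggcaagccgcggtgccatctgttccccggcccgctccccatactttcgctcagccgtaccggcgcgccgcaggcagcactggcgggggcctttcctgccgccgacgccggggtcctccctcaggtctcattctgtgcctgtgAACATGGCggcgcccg
MRPS10: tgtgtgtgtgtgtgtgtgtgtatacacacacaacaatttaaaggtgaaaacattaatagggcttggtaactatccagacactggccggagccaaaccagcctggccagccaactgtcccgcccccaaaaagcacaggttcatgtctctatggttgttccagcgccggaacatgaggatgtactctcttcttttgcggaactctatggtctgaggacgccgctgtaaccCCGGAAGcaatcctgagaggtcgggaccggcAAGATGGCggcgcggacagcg
MRPS16: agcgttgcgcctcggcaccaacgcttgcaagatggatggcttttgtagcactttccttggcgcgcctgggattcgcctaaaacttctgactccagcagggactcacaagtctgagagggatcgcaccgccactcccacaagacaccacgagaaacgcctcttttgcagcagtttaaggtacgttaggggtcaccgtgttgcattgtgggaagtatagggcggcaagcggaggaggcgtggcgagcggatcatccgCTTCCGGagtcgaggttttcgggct
MRPS30: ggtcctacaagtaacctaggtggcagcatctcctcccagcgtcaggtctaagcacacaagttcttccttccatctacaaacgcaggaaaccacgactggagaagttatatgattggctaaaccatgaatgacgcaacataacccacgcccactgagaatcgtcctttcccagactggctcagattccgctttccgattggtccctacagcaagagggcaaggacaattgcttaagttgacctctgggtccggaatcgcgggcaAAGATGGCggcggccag

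The YY1 letters lay just after the start in MRPL1, MRPL20, MRPL9, MRPS10 and MRPS30, genes that include falls, a rise and a difference that did not pass the test. MRPL20 held 2 ETS family matches before its start, MRPL33 and MRPS10 held 1 each, and MRPS16 held 1 on the other strand after its start. The printed set was picked with the calls known, and other lower members with a close start were not printed. Among these, MRPL19 held none of the letters, MRPL57 held only the NRF1 letters and MRPL3 held the ETS family letters. The RefSeq start of MRPL1 lies 310 bases inside the gene as GENCODE 29 draws it, and the other 6 lie 2 to 68 bases inside. RefSeq windows were matched for 69 members, 11 of them with more than 1 start, and a gene was counted once if any of its windows held the letters. ETS family letters stood in 42% of the 69 members, against 23.2% of the 8921 tested protein-coding genes with a window and 11.8% of all 27305 genes with one. YY1 letters stood in 30.4% of the members, against 11.3% of the tested protein-coding genes and 7% of all genes. The NRF1 letters were in 13% of the members and 14.1% of the tested protein-coding genes (6.88% of all genes), and the E-box was in 13% of the members and 12.6% of the tested protein-coding genes (8.42% of all genes). Among the members, ETS family letters were in 48.4% of the 31 that were lower at 48 h than in control and in 36.1% of the other 36 that were tested. YY1 letters were in 35.5% of the lower members and 22.2% of the others, NRF1 letters in 9.68% and 16.7%, and the E-box in 12.9% and 13.9%. These shares are descriptions and were not tested.

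Facts of the whole series bear on the values that follow. The libraries held 18341542 to 22901830 fragments, worked out from the FPKM steps, and 13657 genes passed the filter, for which 3 libraries had to reach 1 FPKM. VIM, SPARC, RUNX2 and CD44, mesenchymal and bone markers, were above 1 FPKM in all 9 libraries, while COL1A1, COL1A2, ALPL and THY1 were below 1 FPKM in all of them. Of 12 markers of other cell types that were in the table, 8 were below 1 FPKM in every library, and KRT8, KRT18 and EPCAM, epithelial genes, were above it in every library. KRT18 lay at 118 to 130 FPKM at 48 h and at 153 to 161 FPKM in control. Summed over the 12 markers, the level was 141.8 to 155.7 FPKM at 48 h and 186.8 to 195.5 FPKM in control, with none of the markers at 0 in all libraries, and its part in the results below was not tested. The third 24 h library stood apart: it scored -24.7 on the second principal component, where the other 8 libraries lay between -6.96 and 9.06. Genes with short exon sequence were high in that library and low at 48 h. In the 3413 shortest tested genes the median deviation from the gene's mean was 0.088 on the log2 scale in the third 24 h library and -0.041 to -0.078 in the 48 h libraries, and in the 3413 longest it was -0.125 in that library and 0.0029 to 0.065 at 48 h. The members are mostly short, with 36 of the 75 tested among the shortest genes and 3 among the longest. Counts of all members are therefore also given without that library and with a correction for length. Subunit counts are also given without that library. Falls and medians of the subunits, the classes and the other gene lists come from the fit without length correction.

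Most members were well detected. Their mean over the 9 libraries ranged from 0.222 to 86.7 FPKM with a median of 16.6 FPKM, and 67 of 77 averaged at least 5 FPKM. MRPS21 (mean 86.7 FPKM) was the most abundant per length, followed by MRPL3 (84.3 FPKM), MRPS18B (70.2 FPKM) and MRPS35 (58.1 FPKM); MRPL51 (55.4 FPKM), MRPL37 (50.5 FPKM) and MRPL41 (45.1 FPKM) were the next highest of the large subunit after MRPL3. The levels of MRPS21 and MRPL3 overlapped in control and at 24 h but not at 48 h. MRPS21 had 93.5, 80.7 and 81.7 FPKM in control, 89.4, 89.5 and 106 FPKM at 24 h and 78.8, 76.3 and 84.1 FPKM at 48 h, and at 48 h all 3 of its values lay above those of MRPL3, which were 73.3, 68.0 and 69.4 FPKM. At the low end of the genes tested, MRPL46 averaged 1.79 FPKM, MRPS33 2.59 FPKM, MRPL2 3.15 FPKM, MRPS18C 3.65 FPKM, MRPS6 4.11 FPKM and MRPL48 4.50 FPKM.

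Some members share exon bases with other genes, and the labels do not say that strand was used in counting, so reads of overlapping genes cannot be told apart. MRPS24, the counterpart of bacterial S3, was listed at 0.113, 0.211 and 0.397 FPKM in control, 0.203, 0.354 and 0.315 FPKM at 24 h and 0.0850, 0.184 and 0.132 FPKM at 48 h. It shares 23.2% of its exon bases with the readthrough gene URGCP-MRPS24. MRPL38 was at 0.586, 0.734 and 1.11 FPKM in control, 0.924, 0.926 and 1.04 FPKM at 24 h and 0.796, 0.745 and 0.663 FPKM at 48 h, and shares 41.1% of its exon bases with a neighbouring transcript. Both fell under the filter and were not tested, which leaves 75 tested members, 47 MRPL and 28 MRPS. MRPL51 shares 31.3% with NCAPD2 (-0.01 at 48 h against control, adjusted p = 0.938 in limma), MRPS12 16.3% with SARS2 (-0.13, adjusted p = 0.461) and MRPL33 21.1% with BABAM2 (-0.09, adjusted p = 0.367), and none of these partners was called. MRPS16 shares 14.9% with other genes, mostly with DNAJC9-AS1, a symbol that stands for 2 IDs. The 1 ID tested was lower too (-0.40, limma adjusted p = 0.00976), as was DNAJC9 (-0.35, adjusted p = 0.00973), which shares 20 bases. Partners of some other members were called in either direction. GCFC2, which shares 132 bases with MRPL19, was lower (-0.30, limma adjusted p = 0.000789). SYVN1, which shares 356 bases with MRPL49, was higher (0.22, limma adjusted p = 0.0159). The part of such reads was not tested. Of all 77 members, 25 share at least 10% of their exon bases with another gene, and 27 pseudogenes are named after members, 1 of which reached 2 FPKM in any library (MRPL45P2, at 2.77 to 4.15 FPKM).

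At 48 h of XD23 the mitochondrial ribosomal protein genes were mostly lower than in control. Of the 75 tested, 34 fell and 2 rose, and 39 did not pass the test (limma on log2(FPKM + 1), two-sided, Benjamini-Hochberg adjusted p under 0.05 over 13657 genes). Over all genes tested, 15.2% fell and 13.3% rose. The median log2 difference of the members was -0.20 beside -0.02 for all genes, and 67 of 75 lay below 0. In 52 members all 3 libraries at 48 h lay below all 3 of control and in 6 above, where the shares over all genes were 27.7% and 22.7%. The changes were small: the members that fell stood at 0.600 to 0.899 times their control mean, and 8 of them were under 0.75 times. In these bulk libraries fewer cells of a kind and less RNA per cell cannot be told apart.

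The count rests partly on single libraries and on gene length. It was 21 without the first control library, 22 without the second 48 h library and 47 without the third 24 h library, which enters only through the shared estimate of the spread. Over all 13657 genes the lower calls moved the same way, from 2080 to 1385, 1371 and 2771 in that order. The members' median stayed between -0.221 and -0.188 over the fits that leave out 1 library. With a correction for gene length, 27 members fell and 6 rose, and the median was -0.14 where that of all genes was -0.0035. Of all 13650 genes in that fit 1955 fell and 2107 rose. With median-of-ratios scaling 25 members fell and 2 rose, and of all 13657 genes 1616 fell and 2149 rose. Over all genes that scaling made 57.1% of the calls higher, against 46.5% in the fit used here. In 20 members the fall passed the test here and in every alternative run: MRPL1, MRPL3, MRPL11, MRPL19, MRPL20, MRPL24, MRPL28, MRPL33, MRPL35, MRPL40, MRPL51, MRPL57, MRPS7, MRPS9, MRPS10, MRPS11, MRPS12, MRPS16, MRPS18B and MRPS22. How many of all genes passed in every run is not given here.

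**Figure D1:**
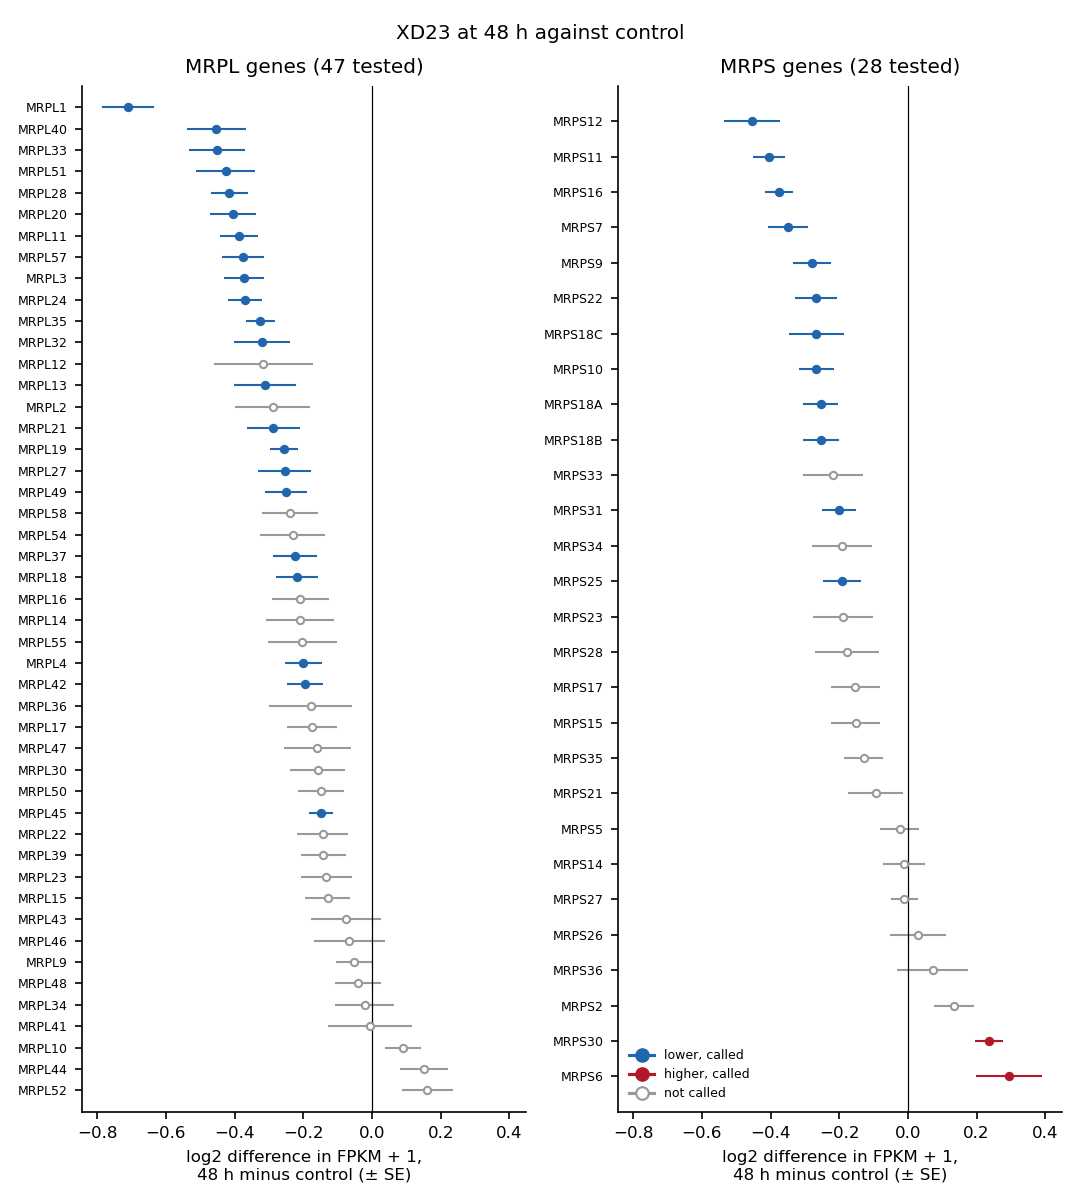
Log2 difference of each tested member at 48 h of XD23 minus control, with its standard error (limma, 3 libraries a group), for the 47 MRPL genes (left) and 28 MRPS genes (right). Filled points passed the test: 22 MRPL and 12 MRPS genes were lower, and MRPS30 and MRPS6 were higher.

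MRPL1, the counterpart of the bacterial L1 protein that forms a mobile stalk beside the tRNA exit site, had the largest fall. It lies on chromosome 4 (GRCh38, 77862520 to 77952790, plus strand). It had 30.7, 31.0 and 29.7 FPKM in control, 30.1, 32.9 and 36.2 FPKM at 24 h and 19.5, 16.5 and 18.9 FPKM at 48 h. All 48 h libraries were low and far from the other 6, and control and 24 h overlapped. The log2 difference at 48 h against control was -0.71 (SE 0.0756, limma adjusted p = 0.000338), a level 0.600 times the control mean.

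The other large falls in the large subunit were in proteins of different origin. MRPL40, a protein found in mitochondria only, had 21.8, 21.2 and 21.0 FPKM in control, 19.7, 23.3 and 24.2 FPKM at 24 h and 15.6, 13.7 and 16.8 FPKM at 48 h (-0.45 at 48 h against control, SE 0.0857, limma adjusted p = 0.00513). MRPL33, a counterpart of bacterial L33 encoded on chromosome 2 (27771717 to 27988087, plus strand), had 19.2, 18.4 and 20.2 FPKM in control, 17.1, 17.9 and 21.3 FPKM at 24 h and 14.1, 12.8 and 14.7 FPKM at 48 h (-0.45, SE 0.0817, limma adjusted p = 0.00426). In both genes every 48 h library lay below every other library. MRPL51, another protein found in mitochondria only and abundant here, had 62.8, 56.3 and 59.6 FPKM in control, 58.2, 57.3 and 72.0 FPKM at 24 h and 45.6, 41.6 and 45.0 FPKM at 48 h (-0.43, SE 0.0861, limma adjusted p = 0.00695). MRPL28, a counterpart of bacterial L28, had 18.6, 17.7 and 18.6 FPKM in control, 16.9, 17.5 and 18.1 FPKM at 24 h and 14.4, 12.4 and 13.7 FPKM at 48 h (-0.42, SE 0.0543, limma adjusted p = 0.000888). Here too no 48 h library reached the lowest of the other 6.

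Members that are the core of the large subunit did not move alike. MRPL3, beside the peptidyl transferase centre, had 94.0, 87.7 and 92.0 FPKM in control, 86.3, 88.7 and 99.6 FPKM at 24 h and 73.3, 68.0 and 69.4 FPKM at 48 h, and fell by 0.37 on the log2 scale at 48 h against control (SE 0.0580, limma adjusted p = 0.00202). MRPL4 had 9.06, 9.52 and 8.73 FPKM in control, 9.49, 8.45 and 9.65 FPKM at 24 h and 7.72, 7.72 and 7.92 FPKM at 48 h (-0.20, SE 0.0539, limma adjusted p = 0.0239), a call that was lost in 7 of 21 alternatives. Both had 48 h libraries that lay below all others. Of the proteins of the stalk that binds translation factors, MRPL11 fell by 0.39 (SE 0.0552, limma adjusted p = 0.00132), with 40.4, 39.0 and 38.2 FPKM in control, 38.6, 39.5 and 43.8 FPKM at 24 h and 29.6, 28.5 and 31.3 FPKM at 48 h. MRPL10, which anchors the stalk, was not called: it had 19.96, 20.19 and 20.93 FPKM in control, 19.8, 20.1 and 22.5 FPKM at 24 h and 21.7, 21.0 and 22.5 FPKM at 48 h, so that all 48 h libraries lay slightly above all control libraries (0.09, SE 0.0524, limma adjusted p = 0.238). MRPL12, the stalk protein itself, varied most between libraries: 19.3, 14.8 and 15.4 FPKM in control, 17.3, 17.1 and 24.6 FPKM at 24 h and 13.4, 11.9 and 13.7 FPKM at 48 h. Its difference at 48 h against control was -0.32 (SE 0.143, limma adjusted p = 0.135), and 68.2% of its exon bases are shared with a neighbouring transcript on the same strand.

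Among further large subunit genes that the naming rule picked, MRPL18 (-0.22, limma adjusted p = 0.0297), MRPL37 (-0.22, adjusted p = 0.0308), MRPL42 (-0.20, adjusted p = 0.0223) and MRPL45 (-0.15, adjusted p = 0.0146) had the smallest falls that passed the test. Each of these calls was lost in 3 to 9 of 21 alternatives. MRPL45, which holds the ribosome near the inner membrane, had little spread: 37.9, 36.7 and 37.2 FPKM in control, 36.4, 36.2 and 38.7 FPKM at 24 h and 33.3, 33.4 and 33.8 FPKM at 48 h. MRPL58, a peptidyl-tRNA hydrolase that frees stalled ribosomes, had 25.5, 25.3 and 27.2 FPKM in control, 23.6, 26.7 and 29.6 FPKM at 24 h and 21.7, 20.4 and 23.7 FPKM at 48 h. Its 48 h libraries lay below those of control, but the difference missed the threshold (-0.24, SE 0.0813, limma adjusted p = 0.0575). MRPL41 did not separate by group, at 46.9, 38.8 and 45.2 FPKM in control, 41.0, 45.2 and 59.1 FPKM at 24 h and 42.7, 44.9 and 42.4 FPKM at 48 h (-0.01, SE 0.123, limma adjusted p = 0.977). No MRPL gene was called higher; the highest value was that of MRPL52 (0.16, limma adjusted p = 0.141).

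In the small subunit, the lowest log2 differences belonged to proteins with bacterial counterparts. MRPS12, of the decoding centre, lies on chromosome 19 (38930548 to 38933162, plus strand) and had 12.5, 11.8 and 12.4 FPKM in control, 11.99, 10.7 and 13.2 FPKM at 24 h and 8.77, 7.79 and 9.44 FPKM at 48 h (-0.45, SE 0.0815, limma adjusted p = 0.00412). MRPS11 had 5.79, 5.80 and 5.63 FPKM in control, 5.48, 5.66 and 5.13 FPKM at 24 h and 4.06, 3.95 and 4.28 FPKM at 48 h (-0.40, SE 0.0468, limma adjusted p = 0.000518). MRPS16 had 53.2, 55.2 and 55.3 FPKM in control, 53.6, 55.9 and 55.1 FPKM at 24 h and 43.9, 40.3 and 41.3 FPKM at 48 h (-0.38, SE 0.0400, limma adjusted p = 0.000338). In all 3 genes the 48 h libraries lay together below the other 6, which overlapped. MRPS7, which organises the head of the subunit, had 21.8, 22.4 and 19.9 FPKM in control, 22.01, 21.4 and 24.4 FPKM at 24 h and 16.8, 15.9 and 16.8 FPKM at 48 h (-0.35, SE 0.0595, limma adjusted p = 0.00319). MRPS9, whose bacterial counterpart touches the tRNA in the peptidyl site, had 17.7, 15.6 and 15.9 FPKM in control, 14.3, 14.5 and 14.6 FPKM at 24 h and 13.4, 12.5 and 14 FPKM at 48 h (-0.28 at 48 h against control, SE 0.0554, limma adjusted p = 0.00640). Its 24 h values lay below all of control and above all of 48 h. MRPS10, another protein with a bacterial counterpart and a printed promoter, had 54.4, 58.3 and 58.2 FPKM in control, 54.3, 57.2 and 61.2 FPKM at 24 h and 45.4, 48.5 and 47.7 FPKM at 48 h (-0.27, SE 0.0517, limma adjusted p = 0.00584). MRPS22, found in mitochondria only, fell by 0.27 (limma adjusted p = 0.0121), and MRPS31 (-0.20, adjusted p = 0.0169) and MRPS25 (-0.19, adjusted p = 0.0289) had smaller falls that were lost in 5 and 7 of 21 alternatives.

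Other core proteins of the small subunit did not pass the test. MRPS2 had 22.8, 24.8 and 23.4 FPKM in control, 24.9, 24.5 and 27.1 FPKM at 24 h and 28.0, 24.9 and 25.6 FPKM at 48 h (0.14, SE 0.0577, limma adjusted p = 0.115). MRPS5, near the entry of the messenger RNA, had 12.4, 11.6 and 12.4 FPKM in control, 11.5, 11.4 and 12.6 FPKM at 24 h and 11.4, 11.5 and 12.8 FPKM at 48 h (-0.02, SE 0.0567, limma adjusted p = 0.791). The groups of MRPS5 overlap throughout. MRPS35, a protein found in mitochondria only, was at 60.6, 59.7 and 57.3 FPKM in control, 58.5, 57.4 and 66.8 FPKM at 24 h and 55.0, 53.0 and 54.2 FPKM at 48 h (-0.13, SE 0.0566, limma adjusted p = 0.126), so its 48 h libraries lay below control without passing the test.

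The 3 relatives of bacterial S18 occupy different places in the ribosome. MRPS18C is the small subunit counterpart, MRPS18B is a second protein of the small subunit, and MRPS18A sits in the large subunit despite its name. MRPS18B had 72.6, 70.4 and 75.6 FPKM in control, 75.7, 74.5 and 80.1 FPKM at 24 h and 57.8, 59.9 and 65.4 FPKM at 48 h (-0.25, SE 0.0530, limma adjusted p = 0.00826). MRPS18A had 17.9, 18.1 and 18.3 FPKM in control, 17.0, 17.6 and 15.8 FPKM at 24 h and 15.01, 15.7 and 14.3 FPKM at 48 h (-0.25, SE 0.0499, limma adjusted p = 0.00612), and it missed the threshold with the length correction (limma adjusted p = 0.104). MRPS18C had 4.26, 3.46 and 3.77 FPKM in control, 3.86, 3.91 and 4.52 FPKM at 24 h and 3.13, 2.74 and 3.16 FPKM at 48 h (-0.27, SE 0.0801, limma adjusted p = 0.0359), a call lost in 8 of 20 alternatives. All 3 were lower at 48 h, by 0.25 to 0.27 on the log2 scale, and their levels did not overlap. MRPS18A shares 47.0% and MRPS18C 40.2% of their exon bases with other genes.

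The only members called higher at 48 h than in control carry MRPS names. MRPS30, on chromosome 5 (44808925 to 44820428, plus strand), is found in mitochondria only and sits in the large subunit. It had 20.1, 20.4 and 20.8 FPKM in control, 19.5, 20.5 and 21.3 FPKM at 24 h and 24.3, 24.8 and 23.6 FPKM at 48 h. Every 48 h library was above the other 6 (0.24, SE 0.0410, limma adjusted p = 0.00352), and the call held in all 21 alternatives. MRPS6 had 3.62, 3.58 and 3.99 FPKM in control, 3.39, 3.45 and 4.54 FPKM at 24 h and 4.37, 4.87 and 5.19 FPKM at 48 h (0.29, SE 0.0956, limma adjusted p = 0.0483). This call was lost in 10 of 20 alternatives, with adjusted p up to 0.143 in limma. SLC5A3, a sodium/myo-inositol cotransporter gene that lies within MRPS6 and shares 273 exon bases with it, rose at the same time, with 8.24, 8.52 and 8.62 FPKM in control, 7.72, 7.50 and 6.08 FPKM at 24 h and 15.3, 17.5 and 14.6 FPKM at 48 h (0.83, SE 0.0877, limma adjusted p = 0.000338). The part of SLC5A3 reads in the MRPS6 value was not tested.

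**Figure D2:**
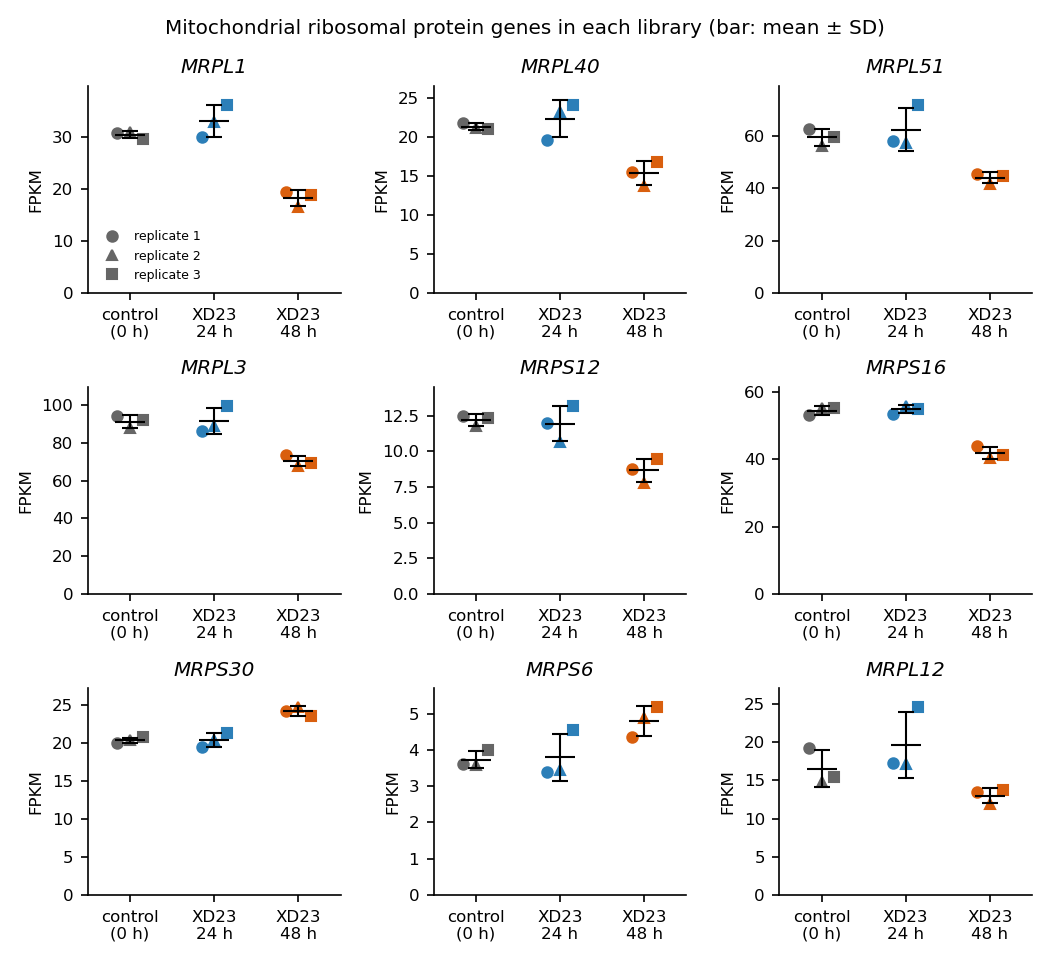
FPKM of 9 members in each library at 0 h (control), 24 h and 48 h of XD23; symbols are replicates, and black bars are mean ± SD (n = 3). MRPL1, MRPL40, MRPL51, MRPL3, MRPS12 and MRPS16 have all 48 h libraries below the others, MRPS30 has them above, and MRPL12 spreads widely at 24 h (17.1 to 24.6 FPKM).

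At 24 h no member passed the test against control, and neither did any with voom on the recovered fragments. Over all 13657 genes limma called 0.00732% lower and 0% higher. An unadjusted limma p under 0.05 was held by 1015 of the 13657 genes and by 3 of the 75 members. These were MRPS14 (0.19, unadjusted p = 0.0127, adjusted p = 0.562), MRPS9 (-0.17, unadjusted p = 0.0153, adjusted p = 0.562) and MRPL18 (0.14, unadjusted p = 0.0481, adjusted p = 0.666). The log2 differences of the members ran from -0.24 (MRPL2) to 0.23 (MRPL12), with a median of 0.03 beside -0.02 for all genes. In 2 members all 24 h libraries lay below all of control (MRPS9 and MRPS18A, beside 8.38% of all genes) and in 3 above (MRPL18, MRPL57 and MRPS14, beside 4.81%). Without the third 24 h library the median was -0.03, and no member was called. The sign of the members' median at 24 h thus depends on that library. MRPS14, a counterpart of bacterial S14, had 9.52, 10.4 and 10.1 FPKM at 24 h and 8.55, 9.28 and 8.07 FPKM in control, so its groups did not overlap.

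The third 24 h library carried the highest value of all 9 libraries for 55 of the 75 tested members. The matching share over all tested genes is not given here, and short genes as a whole were high in that library. This count therefore does not show whether the members differ from other genes there. The summed FPKM of all 77 members was 1813.2, 1741.3 and 1777.5 in control, 1740.9, 1774.7 and 2011 at 24 h and 1538, 1489 and 1580 at 48 h. The first 24 h library lay just below the lowest control library, the second lay within the range of control and the third lay above it, while the sums at 48 h lay together below every other library. The mean of the sums at 48 h was 0.864 times that of control.

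Against 24 h, 42 of the 75 members were lower at 48 h, 1 (MRPS30) was higher and 32 did not pass the test, where 16.3% of all genes fell and 16% rose. The median of the members was -0.23 beside -0.01 for all genes. This comparison shares its 48 h libraries with the one against control, and 31 members were called lower in both. The matching number over all genes is not given here, so this overlap cannot be set beside a share. Without the third 24 h library 33 members fell, 4 rose and the median was -0.18. Without the second 48 h library 23 fell, and with the length correction 33 fell and 4 rose. Over all genes these fits gave 2381, 1487 and 2218 falls and 2213, 1498 and 2324 rises, in that order. MRPL1 again had the largest fall (-0.82, SE 0.0756, limma adjusted p = 0.000140), followed by MRPL12 (-0.54, SE 0.143, adjusted p = 0.0195), MRPL40 (-0.51, SE 0.0857, adjusted p = 0.00233), MRPL20 (-0.51, SE 0.0678, adjusted p = 0.000775) and MRPL57 (-0.49, SE 0.0622, adjusted p = 0.000630). MRPL20 had 22.3, 22.5 and 23.3 FPKM in control, 23.0, 23.8 and 26.9 FPKM at 24 h and 18.2, 15.6 and 17.0 FPKM at 48 h, so that its 48 h libraries lay below the other 6. MRPL57 had 15.9, 17.6 and 17.97 FPKM in control, 18.6, 18.02 and 19.3 FPKM at 24 h and 13.1, 12.1 and 13.9 FPKM at 48 h. In the small subunit MRPS7 (-0.43, SE 0.0595, adjusted p = 0.000983) and MRPS12 (-0.42, SE 0.0815, adjusted p = 0.00487) were lowest, and the smallest differences that passed were MRPS18A (-0.15, adjusted p = 0.0437) and MRPS14 (-0.20, adjusted p = 0.0334). Of further members the rule named here, MRPL19 fell by 0.22 (adjusted p = 0.00357), with 10.7, 10.9 and 10.1 FPKM at 48 h against 12.6, 12.7 and 12.1 FPKM at 24 h, while the calls of MRPL30 (-0.24, adjusted p = 0.0499) and MRPS17 (-0.23, adjusted p = 0.0376) were lost in 16 and 8 of 21 alternatives.

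Both subunits had falls in each 48 h comparison. At 48 h against control 22 of 47 MRPL genes fell and none rose (median -0.21), and 12 of 28 MRPS genes fell and 2 rose (median -0.19). Without the third 24 h library the counts were 32 and 15 falls, with 1 and 2 rises, and both medians were as before because that library is not in this contrast. Without the first control library 12 MRPL genes fell, and without the second 48 h library 13. At 48 h against 24 h 27 MRPL genes fell (median -0.25) and 15 MRPS genes fell and 1 rose (median -0.22), and without the third 24 h library 22 and 11 fell (medians -0.17 and -0.18). Against 24 h only 8 MRPS genes fell without the first or without the second 48 h library. When MRPS30 and MRPS18A were counted in the large subunit, where they sit, 23 of 49 large subunit genes fell and 1 rose at 48 h against control, and 11 of 26 small subunit genes fell and 1 rose. The 26 still include MRPS36, which was kept under its name and was not called. No test of 1 subunit against the other was made, since genes are not replicates.

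The mean log2 level of the MRPL genes minus that of the MRPS genes was 0.138, 0.128 and 0.135 in control, 0.095, 0.137 and 0.203 at 24 h and 0.093, 0.046 and 0.049 at 48 h. The group means were 0.134 ± 0.0052 in control, 0.145 ± 0.055 at 24 h and 0.063 ± 0.026 at 48 h (SD, n = 3), and the 24 h mean was 0.116 without the third 24 h library. The 48 h libraries all lay below the control libraries, and the first 24 h library lay close to the first 48 h library. MRPS30 and MRPS18A sit in the large subunit. With both counted there, the group means were 0.1509 in control, 0.1529 at 24 h and 0.09956 at 48 h. The 48 h libraries, at 0.1304, 0.09343 and 0.07487, again lay below those of control, at 0.1506, 0.1476 and 0.1546. The first 24 h library, at 0.1061, then lay within the range of the 48 h libraries. These differences are descriptions, with no test.

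**Figure D3:**
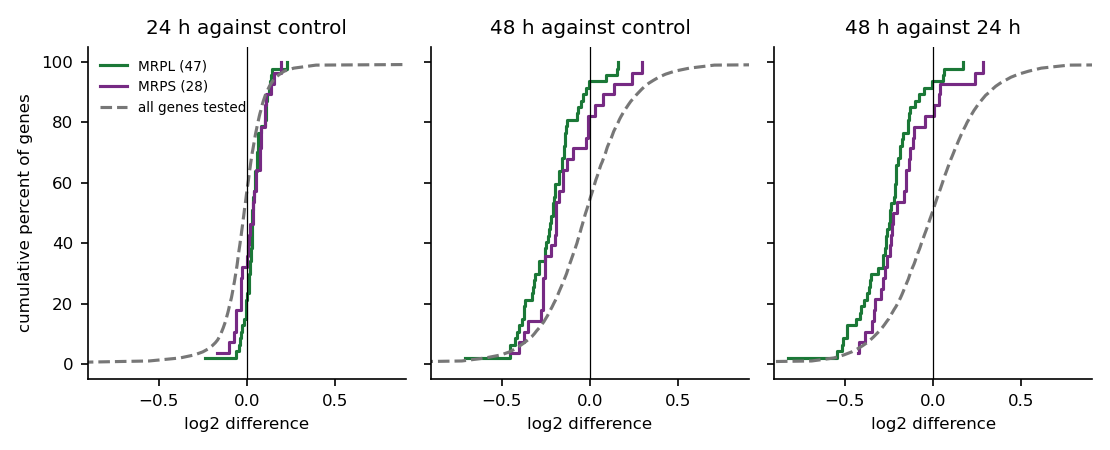
Cumulative percent of genes by log2 difference in the 3 comparisons, for 47 MRPL genes, 28 MRPS genes and all 13657 genes tested (dashed). At 24 h against control the members lie close to 0 (median 0.03), and in both 48 h comparisons both subunits are shifted to the left of all genes, with MRPL medians of -0.21 and -0.25 and MRPS medians of -0.19 and -0.22.

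Members were also grouped by their systematic names, which mark proteins with a bacterial counterpart and proteins found in mitochondria only. MRPS18A and MRPS18B, although relatives of bacterial S18, are in the second class by these names, and both fell. Of 45 tested members with a bacterial counterpart, 22 fell and 1 rose at 48 h against control (median -0.22), and of 29 found in mitochondria only, 12 fell and 1 rose (median -0.19). MRPS36, now known as a subunit of the 2-oxoglutarate dehydrogenase complex and left out of both classes, was not called (0.07, limma adjusted p = 0.640). Across the 75 members the log2 difference had little relation to exon length (Spearman 0.0718) or to mean level (Spearman -0.0898), both over genes that share the same 6 libraries. Of the 52 tested members that share under 10% of their exon bases with another gene, 23 fell and 2 rose, with a median of -0.20.

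Cytosolic ribosomal proteins and the nuclear subunits of the respiratory chain give the levels of related machinery in the same libraries. At 48 h against control 7 of 82 tested cytosolic ribosomal protein genes fell and none rose (median -0.03), and 29 of 77 nuclear respiratory chain genes fell and none rose (median -0.24). The difference between these lists was not tested. In the third 24 h library all these lists were high: its mean log2(FPKM + 1) was 4.45 for MRPL where control had 4.25 to 4.30, 4.25 for MRPS where control had 4.12 to 4.17, and 7.81 for the cytosolic ribosomal proteins where control had 7.49 to 7.60.

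**Figure D4:**
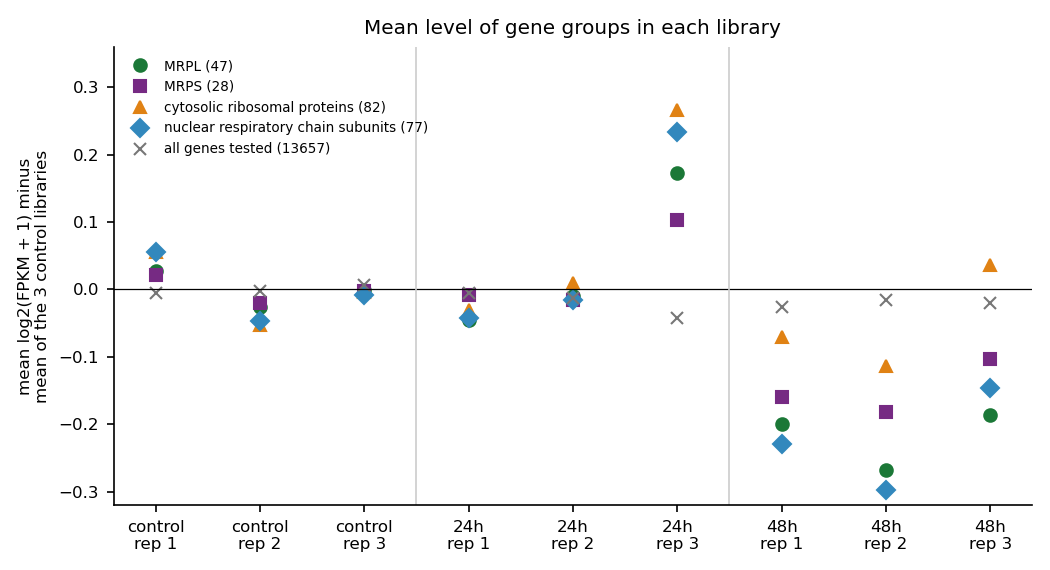
Mean log2(FPKM + 1) of 5 gene groups in each of the 9 libraries, minus the mean of the 3 control libraries. All groups but all genes tested are high in the third 24 h library, and at 48 h the MRPL, MRPS and respiratory chain groups lie below 0 in each library.

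Other genes of mitochondrial gene expression were read from companion lists. Of 16 tested translation factors 10 fell and 1 rose at 48 h against control (median -0.20). MTIF2, the initiation factor that places the first tRNA, had 41.9, 41.6 and 39.8 FPKM in control, 37.5, 39.3 and 38.1 FPKM at 24 h and 29.96, 29.2 and 29.8 FPKM at 48 h (-0.46, limma adjusted p = 8.74e-05). TUFM, the elongation factor that delivers tRNAs, had 91.9, 91.8 and 93.5 FPKM in control, 89.2, 89.6 and 96.5 FPKM at 24 h and 76.0, 69.2 and 77.2 FPKM at 48 h (-0.32, limma adjusted p = 0.00216). SLIRP, an RNA-binding partner of LRPPRC, had the lowest value of the list (-0.53, limma adjusted p = 0.00579), and OXA1L, the insertase that receives nascent proteins at the inner membrane, was the 1 that rose (0.10, limma adjusted p = 0.0487). In all 4 genes the 48 h libraries stood on 1 side of all control libraries.

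Of 29 tested assembly and rRNA modification factors 8 fell and none rose (median -0.11). The lowest was DDX28, an RNA helicase of large subunit assembly (-0.53, limma adjusted p = 0.00179), and the smallest fall was that of MTG2, a GTPase of the same process (-0.16, limma adjusted p = 0.00800). Of 18 genes of mitochondrial transcription and RNA processing 9 fell and none rose (median -0.15), from FASTKD5 (-0.44, limma adjusted p = 0.00332) to SUPV3L1, an RNA helicase (-0.13, limma adjusted p = 0.0410). TFAM, which packages mitochondrial DNA and starts its transcription, was among them, with 37.6, 38.5 and 37.5 FPKM in control, 39.3, 38.9 and 39.6 FPKM at 24 h and 30.2, 29.9 and 28.9 FPKM at 48 h (-0.34, limma adjusted p = 0.000187). Of 23 protein import genes 10 fell and none rose (median -0.18), from TIMM10, a chaperone of the intermembrane space (-0.76, limma adjusted p = 0.000568), to TOMM20, an outer membrane receptor (-0.12, limma adjusted p = 0.0478). Of 5 ribosomal proteins under other names, AURKAIP1 (-0.23, limma adjusted p = 0.0398) and PTCD3 (-0.16, limma adjusted p = 0.0179) fell.

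The RNAs encoded in mitochondrial DNA included messenger RNAs that rose and others that fell at 48 h against control. Neither mitochondrial ribosomal RNA was called at 48 h against control (MT-RNR1 0.04, limma adjusted p = 0.899; MT-RNR2 0.00, adjusted p = 0.959), in libraries captured by oligo(dT), which need not hold these RNAs in proportion. Of the 13 mitochondrial messenger RNAs 4 rose and 2 fell (median 0.04), from MT-CYB (0.35, limma adjusted p = 0.000861) to MT-ND1 (-0.28, limma adjusted p = 0.00571). Over all genes 13.3% rose and 15.2% fell. At 48 h against 24 h 5 of the 13 fell and none rose (median -0.13), with MT-ND1 lowest again (-0.55, limma adjusted p = 0.000178). No difference between this list and the nuclear lists was tested. Of 8 tested regulators of mitochondrial genes 2 rose and 1 fell. YY1 had 23.9, 24.2 and 25.3 FPKM in control, 23.9, 24.3 and 25.2 FPKM at 24 h and 31.2, 31.4 and 30.5 FPKM at 48 h (0.33, limma adjusted p = 0.000419). NRF1 had 4.36, 4.11 and 4.01 FPKM in control, 4.46, 4.16 and 4.34 FPKM at 24 h and 5.21, 5.17 and 4.72 FPKM at 48 h (0.23, limma adjusted p = 0.0116). MYC fell by 0.22 (limma adjusted p = 0.0168), and GABPA, the ETS family subunit of GABP, was not called against control (0.07, limma adjusted p = 0.256). At 48 h against 24 h 3 of the 8 regulators rose and none fell, where 16% of all genes rose. GABPA was among the 3 (0.20, limma adjusted p = 0.00949).

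**Figure D5:**
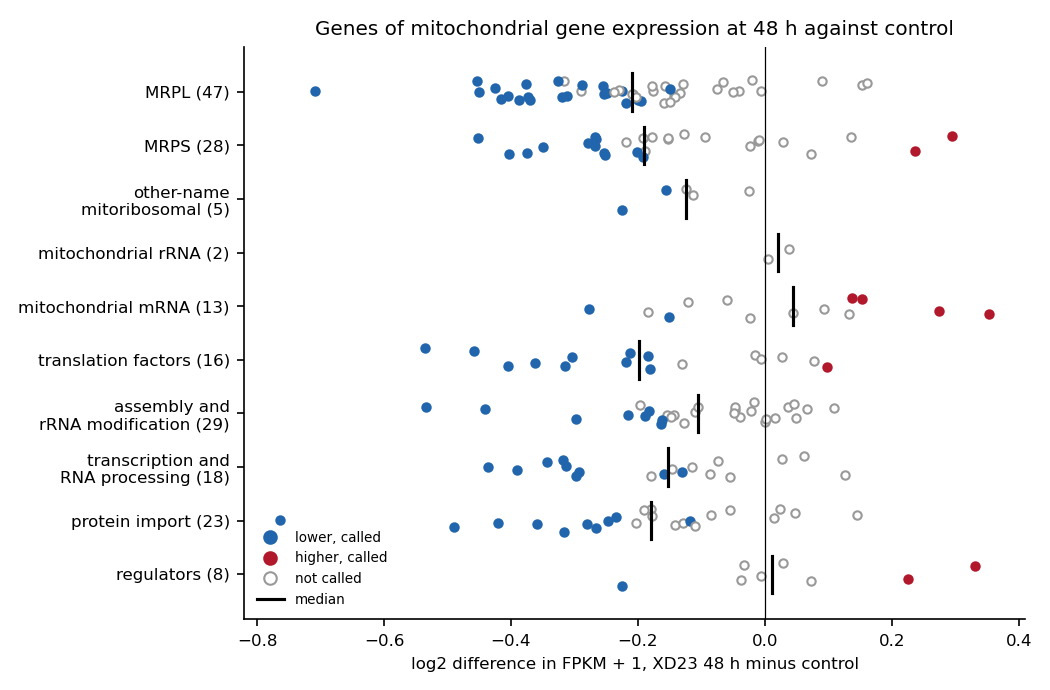
Log2 difference at 48 h of XD23 minus control for each tested gene of the members and 8 companion lists; filled points passed the limma test, open points did not, and black bars are medians. MRPL and MRPS medians lie at -0.21 and -0.19, beside -0.20 for the translation factors and 0.04 for the messenger RNAs encoded in mitochondrial DNA.

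Several members lie head to head with another gene, that is on opposite strands with starts at most 1000 bases apart or overlapping by at most 300. This held for 21 of 77 members (27.3%) and for 13.7% of the 10868 tested protein-coding genes. For 16 of these members the partner was tested too at 48 h against control: for 3 both fell, for 5 the member alone fell, for 3 the partner alone fell, and for 5 neither was called. MRPS11 and MRPL46 are each other's partner and are counted under both. In the same comparison 34 of the 75 tested members and 15.2% of all genes tested fell. The same counts over all head-to-head pairs were not made, so these numbers do not show whether partners move together. The 3 pairs in which both fell were MRPL13 with MTBP (-0.31 and -0.31, limma adjusted p = 0.0312 and 0.00345), MRPL18 with TCP1, a chaperonin subunit (-0.22 and -0.22, adjusted p = 0.0297 and 0.0151), and MRPL57 with SKA3, a kinetochore protein (-0.38 and -0.43, adjusted p = 0.00279 and 0.00156). MRPS11 and MRPL46 form a pair within the set, with starts 34 bases apart on chromosome 15: MRPS11 fell (-0.40), and MRPL46, at 1.58 to 1.75 FPKM at 48 h and 1.60 to 2.23 FPKM in control, was not called (-0.07, limma adjusted p = 0.679). MRPL36, beside the respiratory chain gene NDUFS6, was not called (-0.18, adjusted p = 0.311), while NDUFS6 fell (-0.32, limma adjusted p = 0.0117). The member and its partner share the same libraries, and no test of their likeness was made.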

How the data were processed

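Messenger RNA of 9 libraries of 143B cells was captured with oligo(dT) and sequenced in pairs, per the labels' protocols. The authors deposited 1 table of FPKM with replicates apart. The submitters' processing notes name the tools HISAT2, Subread with featureCounts, and DESeq2, with hg38 as build. The sources used here give no versions, settings or strand use. GENCODE 29 (GRCh38) gave gene types, positions and exon overlaps, and RefSeq (GRCh38.p14) gave promoters.

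All 13657 genes with at least 1 FPKM in at least 3 libraries were fitted on log2(FPKM + 1) with limma 3.58.1 in R 4.3.3 (1 mean per group, all 9 libraries, eBayes with trend, 6 residual degrees of freedom, Benjamini-Hochberg adjustment), a scale that understates changes of low genes. Errors are standard errors of that fit. The fit was checked on simulated data with independent noise in each gene and library. Those data held no outlying library and no trend with length, so the check does not cover these features.

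Fragments were recovered from the FPKM steps: values were whole within 0.001 for 20926 genes at the GENCODE length and for 15870 at the smallest length that fits, which holds for 57 of the 77 members. They gave the depth of 18341542 to 22901830 fragments per library and the voom alternative. The length correction took out a lowess trend (span 0.3) of each library's deviations on exon length.

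Named genes are the 5 highest and 5 lowest called differences per subunit and comparison, the 4 highest and 4 lowest levels per subunit, members under the filter, and the stalk, core, rescue and S18-related genes; MRPS36, MRPL52, MRPL9, the overlapping genes and the head-to-head pairs were chosen after their values were seen. The members and lists were chosen with earlier results of these data known, so no list is independent evidence of its direction. Alternatives were other pseudocounts (0.1 and 0.5), filters, scalings, array weights, fits restricted to the compared groups, replicate number as a block, and leaving out each library; members with shared exons left out was added after seeing the data.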

Additional observations from a re-analysis of the deposited data

How the results depend on the processing

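No result changed sign past the threshold in 21 alternatives, and 38 of the 61 calls of named members held in all of them. The lower members numbered 21 to 47 at 48 h against control over the fits that leave out 1 library (higher 1 to 3), and 23 to 41 at 48 h against 24 h (higher 1 to 4); for MRPL they were 12 to 32 (higher 0 to 1) and 15 to 30 (higher 0 to 2), and for MRPS 9 to 15 (higher 1 to 2) and 8 to 13 (higher 1 to 2). Over all genes the lower calls in the fits that leave out 1 library ran from 1371 to 2771 and from 1487 to 2381. No member was called at 24 h against control in any alternative run. Members higher at 48 h against control numbered 1 with no filter, with a filter at 5 FPKM and without the trend, 4 with array weights and with only the groups compared, and 6 with the length correction. For MRPL these were 1 with quantile normalization, array weights or subunits by place, 2 with only the groups compared and 3 with the length correction; for MRPS they were 1 with no filter, the 5 FPKM filter, quantile normalization, no trend or subunits by place. MRPL genes lower at 48 h against control numbered 14 with no filter and with median-of-ratios scaling. At 48 h against 24 h, 26 members were lower with no filter (MRPS 7, and 9 with only the groups compared). Members higher there numbered 2 with quantile normalization, the replicate block or voom, and 4 with array weights or the length correction (MRPL 1 with quantile normalization or by place, 2 with array weights or the length correction; MRPS 2 with array weights, the block, the length correction or voom, and 0 by place).

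The replicate numbers do not mark a shared culture or day in the labels. Same-numbered libraries of different groups correlated at -0.057 to 0.239 in their deviations, and differently numbered ones at -0.192 to 0.128. The highest value, 0.239, was that of the third 24 h and the third 48 h library. Whether these libraries share more than a number was not tested. With the replicate block 35 members fell at 48 h against control, 38 fell at 48 h against 24 h and none was called at 24 h. On a gene of 1 kilobase 1 fragment is worth 0.0437 to 0.0545 FPKM, which limits what the members under the filter can show.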
